A study of Homo sapiens with 95 samples.

Results

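The glycolysis and hypoxia response genes are a list of 41 genes that cover the enzymes of glycolysis, the transporters of glucose and lactate, the regulators of that pathway, and genes around the hypoxia-inducible factors (HIF). All 41 symbols were among the 27978 genes listed in every count file, and 39 had a mean raw count of at least 1 over all samples. These 39 are described below. CA9 and ANKRD37 fell short of that mean at 0.758 and 0.516, while EGLN3 at 2.73 and SLC2A3 at 3.92 were the members just above it. The rule itself reads symbols and mean counts, but the list was drawn up with earlier results of these data known.

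The samples were 95 sparse full length (SFL) RNA-seq libraries of AALE, a bronchial epithelial line of human origin that was immortalized and was treated here as a confluent layer in multiwell plates. All cells carried a construct. Knockout of FAT1 or CDKN2A by CRISPR was compared with cells given the pSpCas9-EGFP plasmid without a guide (GFP), and overexpression of NRF2 (gene NFE2L2), FGFR1, NRG1 or PIK3CA was compared with cells given the reporter HcRed. Each of these 8 lines received DMSO as the control treatment or 1 of 3 chemicals. These were CSC, a condensate of cigarette smoke, at 24 μg/ml, the polycyclic hydrocarbon benzo(a)pyrene (BaP) at 173 μM, and NNK, a nitrosamine found in tobacco, at 490 μM. There were 3 samples in 31 of the 32 groups and 2 in the group of FGFR1 cells given CSC. The length of exposure, the promoters of the constructs and whether a knockout line was 1 clone are not given in the sources used here, so each line is a single model of its perturbation.

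Glycolysis splits glucose into pyruvate in the cytosol, and lactate dehydrogenase turns pyruvate into lactate when it is not burned in mitochondria. Under low oxygen the HIF proteins escape hydroxylation by the EGLN enzymes and switch on many genes of this pathway, binding a short core sequence near their start sites. HIF is controlled mainly at the level of the protein, so the mRNA of HIF1A is not a measure of its activity. In airway epithelium the same genes also answer to growth factor and oncogene signalling.

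The core of the HIF binding sequence is ACGTG or GCGTG. RefSeq promoters (GRCh38.p14, 250 bases before to 50 after a start) were at hand for 35 of the 41 members, with 65 starts. The promoters of 4 members are printed to show what such sequences look like beside results that differ: LDHA, which was lower with BaP and NNK, PGK1, an enzyme of the same pathway, and the transporters SLC16A3 and SLC2A1, which were higher with CSC. Capitals mark ACGTG on either strand, which reads CACGT on the opposite one.
LDHA, chr11:18394313-18394612, + strand: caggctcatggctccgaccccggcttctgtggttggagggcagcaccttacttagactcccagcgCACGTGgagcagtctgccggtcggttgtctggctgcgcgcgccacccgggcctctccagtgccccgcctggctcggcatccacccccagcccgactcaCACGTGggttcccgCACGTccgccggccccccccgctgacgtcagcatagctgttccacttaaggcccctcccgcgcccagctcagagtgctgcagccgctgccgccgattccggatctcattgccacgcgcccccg
PGK1, chrX:78103998-78104297, + strand: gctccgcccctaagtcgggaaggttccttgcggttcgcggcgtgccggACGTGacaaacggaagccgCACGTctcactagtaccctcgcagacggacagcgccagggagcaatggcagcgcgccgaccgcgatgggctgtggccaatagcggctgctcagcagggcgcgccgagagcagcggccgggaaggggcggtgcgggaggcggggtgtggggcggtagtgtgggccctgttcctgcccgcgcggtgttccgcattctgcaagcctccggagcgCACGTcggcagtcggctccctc
SLC16A3, chr17:82228792-82229091, + strand: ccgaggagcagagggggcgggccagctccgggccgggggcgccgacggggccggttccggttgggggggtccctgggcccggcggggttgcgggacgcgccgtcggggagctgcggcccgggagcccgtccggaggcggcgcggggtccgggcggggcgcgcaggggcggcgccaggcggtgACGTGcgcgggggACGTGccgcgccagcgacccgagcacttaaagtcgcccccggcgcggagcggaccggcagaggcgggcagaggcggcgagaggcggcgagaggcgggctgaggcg
SLC2A1, chr1:42958819-42959118, - strand: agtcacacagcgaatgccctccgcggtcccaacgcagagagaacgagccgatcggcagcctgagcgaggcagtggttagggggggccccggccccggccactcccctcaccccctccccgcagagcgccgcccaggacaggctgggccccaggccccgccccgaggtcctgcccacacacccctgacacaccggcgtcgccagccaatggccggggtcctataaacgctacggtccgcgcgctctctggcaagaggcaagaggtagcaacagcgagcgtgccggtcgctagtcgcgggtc
LDHA held 3 stretches with ACGTG, PGK1 held 3, SLC16A3 held 2 at this start, and SLC2A1 held none. The other 4 listed starts of SLC16A3 and the other listed start of LDHA held none either. GCGTG is not marked above. It had 1 match each in the printed promoters of LDHA, PGK1 and SLC2A1 and none in that of SLC16A3. ACGTG lay in 25 of the 65 member promoters (38.5%) and in 21.4% of all 35116 listed promoters. Counted by gene, 21 of 35 members (60.0%) and 24.9% of all 27305 genes had it in at least 1 listed promoter. GCGTG lay in 28 of the 65 (43.1%), against 36.5% of all. By gene, GCGTG was in 65.7% of members and 40.6% of all genes. A match says only that the letters are there. Counts by promoter weigh genes by their number of listed starts, and by gene a gene with more starts has more chances of a match.

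Depth ran from 287446 to 2116383 counted reads per sample, with a median of 934235, and 9 libraries lay under 500000 counts, of which 5 were BaP, 3 NNK and 1 CSC. CYP1A1, an oxidase induced by aromatic hydrocarbons, stood at 0 to 18.5 CPM (counts per 1000000, normalised by TMM) with DMSO, 123 to 805 CPM with CSC, 105 to 836 CPM with BaP and 32.7 to 112 CPM with NNK. Each perturbed gene moved the way its line name states. NFE2L2 was 1321 to 1784 CPM in its line against 193 to 248 CPM in HcRed, FAT1 was 67.5 to 128 CPM in the knockout against 258 to 447 CPM in GFP, and CDKN2A was 34.7 to 67.1 CPM against 78.3 to 148 CPM. The 8 basal epithelial markers summed to between 4019 and 11740 CPM in every library, and the sum moved with the lines, as given below. With DMSO it was 5170 to 10110 CPM and with CSC 4308 to 8232 CPM. With BaP it was 4019 to 8212 CPM and with NNK 5419 to 11740 CPM. Of these markers 2 were called higher and 5 lower with CSC, 2 and 6 with BaP, and 4 and 2 with NNK. After the correction described below it was 0 and 4, 0 and 6, and 3 and 3. The shares of all genes called are given with each chemical below. The 6 fibroblast markers reached at most 68.4 CPM, of which COL1A1 gave up to 61.0 CPM, the 5 immune markers 42.0 CPM with CD3E at 0 throughout, and the 4 endothelial markers 6.38 CPM. With DMSO the fibroblast sum was 7.41 to 34.9 CPM and with CSC 14.0 to 57.3 CPM, with BaP 12.5 to 68.4 CPM and with NNK 11.7 to 51.7 CPM. The immune sum was 6.12 to 18.3 CPM with DMSO, 10.3 to 42.0 CPM with CSC, 4.07 to 41.7 CPM with BaP and 5.55 to 25.1 CPM with NNK. Their part in the results was not tested.

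With DMSO the members differed widely in level. Per kilobase of the canonical transcript, the median level over 24 samples was 1131 CPM for GAPDH, 777 for ENO1, 500 for PKM, 399 for LDHB, 342 for ALDOA, 291 for LDHA and 175 for TPI1. All 7 are enzymes that act from aldolase down to lactate, but other enzymes of that stretch, PGK1 and PGAM1, stood lower. LDHB, ALDOA and LDHA were neighbours whose ranges overlapped (250 to 453, 192 to 390 and 201 to 406 CPM per kilobase). HIF1A, the oxygen-regulated subunit of the HIF complex, was eighth at 93.0 CPM per kilobase, above GPI at 84.3, PFKP at 76.2 and PGK1 at 70.3, with overlapping ranges. The lowest detected members were ENO2 at 4.97, PDK1 at 1.55, EGLN3 at 1.23 and SLC2A3 at 0.455 CPM per kilobase. CA9, a carbonic anhydrase used as a marker of hypoxia, had a read in 45 of 95 samples and ANKRD37 in 35, and neither was tested. PGAM1, the mutase between PGK1 and ENO1, stood at only 7.09 CPM per kilobase. It has near-identical copies in the genome, and how reads that align to several places were counted is not stated, so its level and those of GAPDH, PGK1, ENO1, PKM, LDHA and LDHB, which also have processed copies, and of SLC2A3, which has a close paralog, are uncertain.

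Of all counted reads, the 39 genes took 0.824 to 0.981% with DMSO (median 0.910%, n = 24) and 1.01 to 1.31% with CSC (median 1.08%, n = 23), which did not overlap. With BaP the share was 0.966 to 1.18% and with NNK 0.919 to 1.14%. These shares were not corrected for the GC content of genes. In these bulk samples a change in the make-up of the cells and a change in RNA per cell cannot be told apart. One property of the libraries moved with treatment and is set beside the differences from DMSO. Across genes, the slope of log2 level on GC content was -0.416 to -0.102 per 10 percentage points in the 24 DMSO samples, and -0.003 to 0.226 in the CSC samples. With BaP the slope was -0.107 to 0.239 and with NNK -0.069 to 0.237. The median difference of CSC from DMSO accordingly ran from -0.27 (log2) in the group of genes with least GC to 0.43 in the group with most, when genes were split into 5 groups of equal size. Differences from DMSO are therefore given as pairs, the first uncorrected and the second corrected sample by sample for GC content and exon length. In the 5 groups by GC content, chemicals compared with each other had medians between -0.04 and 0.03. Whether libraries were prepared in batches by treatment is not given in the sources used here. An effect of library preparation and an effect of treatment on this trend cannot be told apart, and the correction would remove either.

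**Figure D1:**
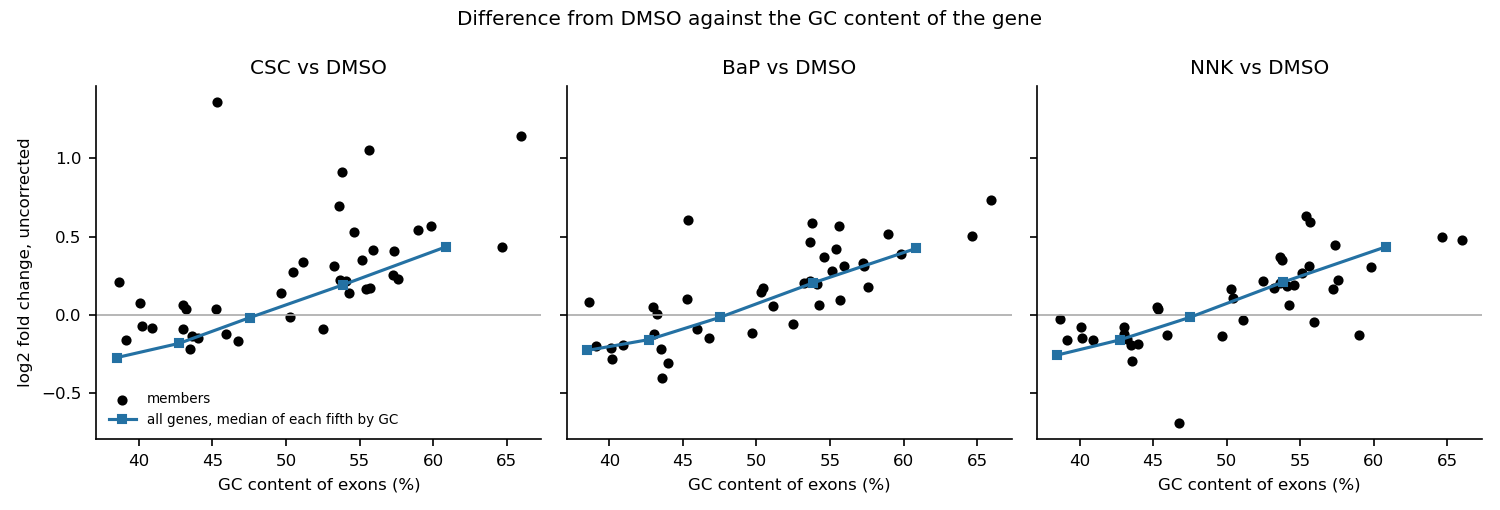
Each point is 1 of the 39 genes, with the GC content of its exons in percent on the horizontal axis and its uncorrected log2 difference from DMSO on the vertical axis, for CSC, BaP and NNK. The line joins the medians of all tested genes in 5 groups by GC content, from -0.27 to 0.43 with CSC. With CSC, SLC16A3 lies at 66.0% GC and 1.14, VEGFA at 55.6% and 1.05, and SLC2A1 at 53.6% and 0.69.

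The first question was how each chemical changed these genes over the 8 lines. The glucose transporters SLC2A1 and SLC2A3, the lactate transporter SLC16A3, and the HIF-associated genes VEGFA and NDRG1 rose with CSC, while the lactate transporter SLC16A1 did not. SLC16A3, an exporter of lactate, was 42.8, 141 and 227 CPM (lowest, median and highest of 24) with DMSO and 165, 295 and 475 CPM with CSC. The groups overlapped between lines, but CSC was higher in 8 of 8 lines. Its log2 difference was 1.14 ± 0.04 (SE), a 2.21-fold rise, with an adjusted p of 2.01e-42 by limma-voom, and 0.54 ± 0.04 after correction. VEGFA, the main angiogenic growth factor, went from 18.6, 44.7 and 107 CPM to 42.5, 112 and 221 CPM. Its difference was 1.05 ± 0.06, and 0.78 after correction. NDRG1, a gene induced by hypoxia and stress, went from 98.8, 143 and 185 CPM to 143, 260 and 447 CPM, a difference of 0.91 ± 0.05 and 0.71 after correction. SLC2A1, the main glucose transporter of epithelial cells, was 80.6, 125 and 157 CPM with DMSO. With CSC it was 151, 201 and 249 CPM, so that the groups touched only at their edges. The difference was 0.69 ± 0.05, a 1.62-fold rise, and 0.51 ± 0.04 after correction. SLC2A3, a high-affinity glucose transporter, was scarce, with a read in 74 of 95 samples. It lay at 0 to 6.97 CPM with DMSO and 0 to 25.5 CPM with CSC. Its difference of 1.36 ± 0.20 was higher in 6 of the 6 lines where it could be fitted, and it was 1.46 after correction.

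**Figure D2:**
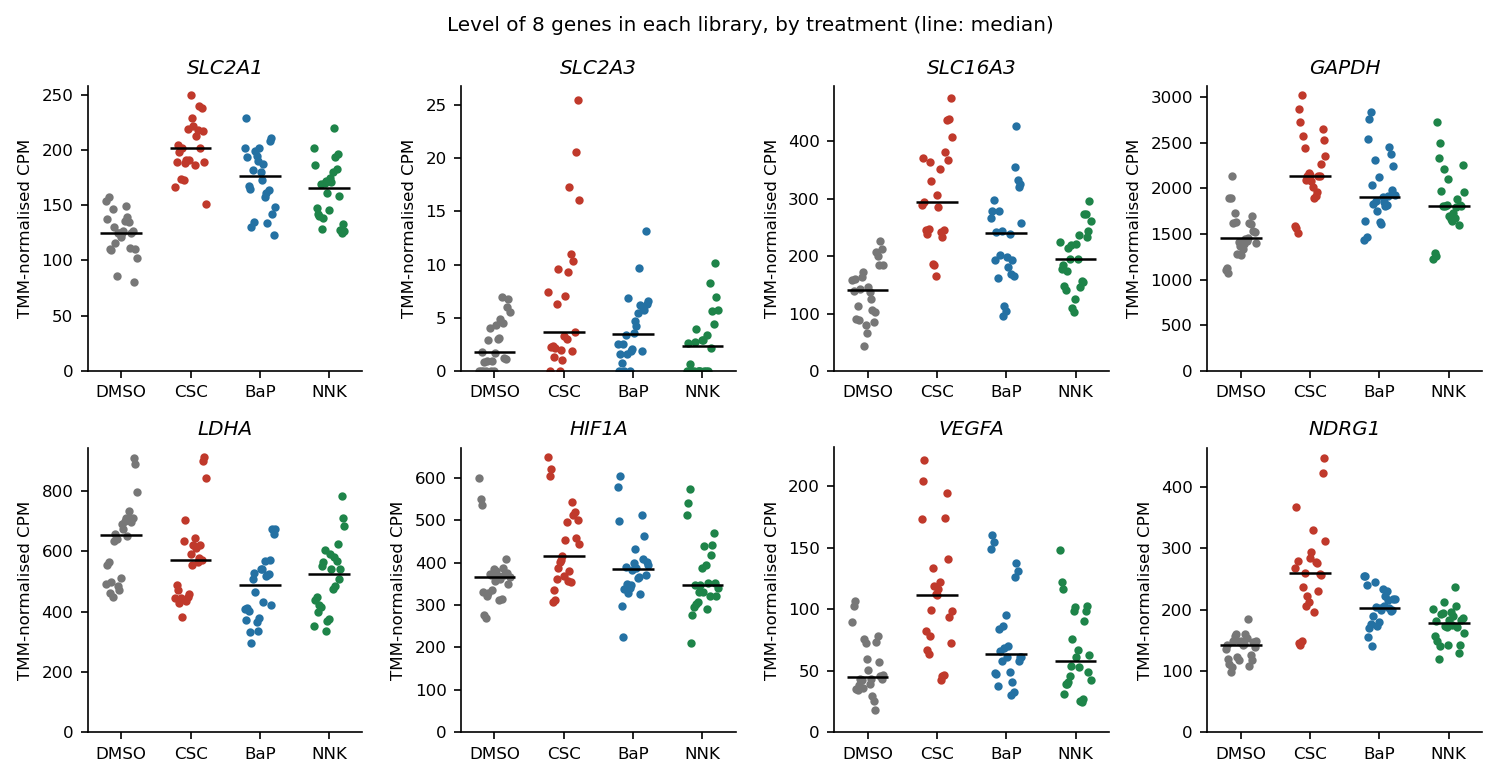
Level of 8 genes in TMM-normalised CPM on linear axes from 0, with 1 point per library (24 for DMSO, BaP and NNK, 23 for CSC, all 8 lines together) and a line at the median. SLC2A1 is 80.6 to 157 CPM with DMSO and 151 to 249 CPM with CSC, whereas LDHA is lower with BaP (median 487 CPM) and NNK (median 523 CPM) than with DMSO (median 653 CPM).

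In all, 25 of 39 members passed an adjusted p of 0.05 with CSC, 20 higher and 5 lower. Among all 14497 genes tested, 55.6% passed, with 27.2% higher and 28.4% lower. The median log2 difference was 0.21 over the members and -0.01 over all genes. After correction 21 members passed, 19 higher and 2 lower, beside 34.0% of all genes, 16.8% higher and 17.2% lower. The members called with and without correction in the same direction were 13, and all 13 were higher. Besides the 5 named above they were GAPDH (0.57, and 0.19 after correction), the phosphofructokinase PFKP (0.53 and 0.31), the aldolase ALDOA (0.41 and 0.12), the isomerase GPI (0.35 and 0.10), hexokinase HK2 (0.34 and 0.24), the HIF subunits EPAS1 (0.31 and 0.14) and HIF1A (0.21 and 0.49), and the phosphoglucomutase PGM1 (0.27 and 0.21). HIF1A was higher in 8 of 8 lines, at 270, 367 and 599 CPM with DMSO and 307, 415 and 649 CPM with CSC.

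The other calls with CSC were lost or reversed on correction. PFKL was 0.43 higher without correction and -0.14 with it. ENO1 was 0.14 higher and -0.06 after correction, and the mitophagy receptor BNIP3L was lower by -0.16 and higher by 0.13 after correction, each called both times. ADM (0.54 and 0.19), PFKFB3 (0.42 and 0.15), TPI1 (0.23 and -0.07), HK1 (0.22 and 0.04) and PKM (0.21 and 0.0039) were called higher only before correction. LDHB (-0.21 and -0.05), SLC16A1 (-0.15 and -0.01), LDHA (-0.13 and 0.01) and PGK1 (-0.09 and 0.08) were called lower only before it. Called only after it were PDK1 (0.07 and 0.30), KDM3A (0.06 and 0.21), PFKFB2 (0.04 and 0.19), P4HA1 (-0.07 and 0.18) and EGLN1 (0.04 and 0.14). KDM3A is a histone demethylase and P4HA1 a subunit of collagen prolyl hydroxylase.

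**Figure D3:**
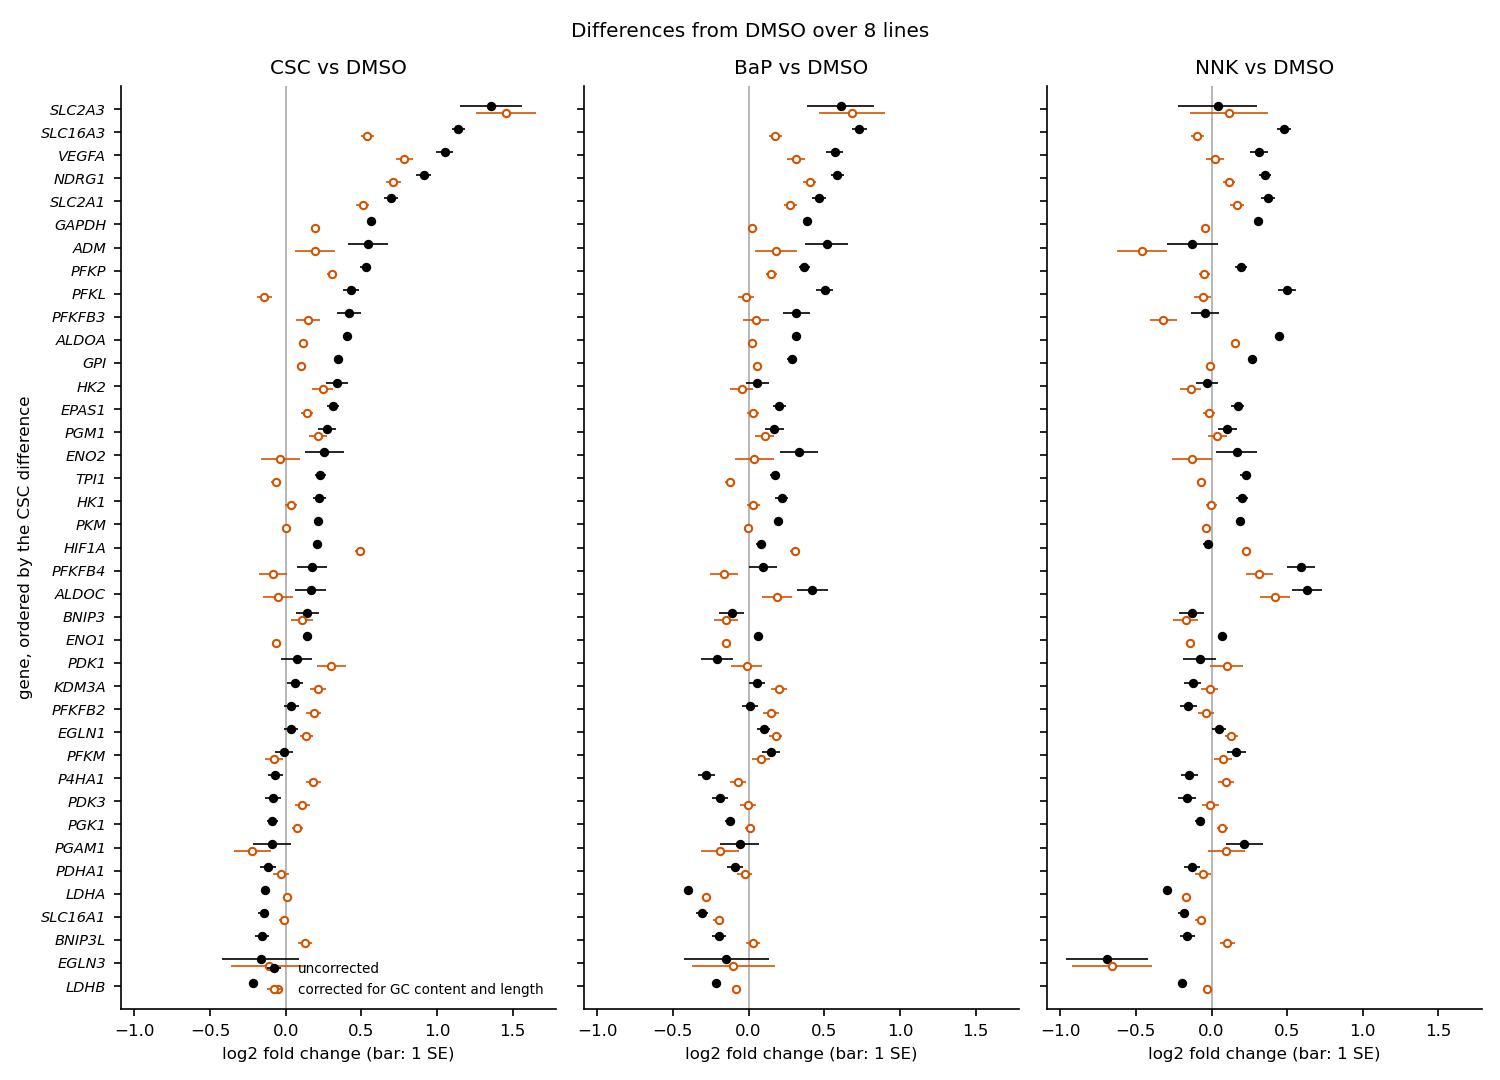
The log2 difference from DMSO of the 39 genes with CSC, BaP and NNK over 8 lines, uncorrected (black) and corrected for GC content and exon length (orange), with bars of 1 SE. Genes are ordered by the uncorrected CSC difference, from SLC2A3 at 1.36 to LDHB at -0.21, and the corrected values of GAPDH and SLC16A3 lie well under the uncorrected ones.

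With BaP, SLC2A1, SLC2A3, SLC16A3, VEGFA and NDRG1 rose, and LDHA fell. LDHA, the lactate dehydrogenase subunit that favours lactate, was 450, 653 and 910 CPM with DMSO and 296, 487 and 674 CPM with BaP. It was lower in 8 of 8 lines. The difference was -0.40 ± 0.03 with an adjusted p of 5.73e-24 by limma-voom, and -0.28 ± 0.03 after correction. SLC16A1, a lactate transporter of the same family as SLC16A3, was also lower in 8 of 8 lines (-0.31, and -0.20 after correction), as was LDHB (-0.22 and -0.08). Higher with BaP were SLC16A3 (0.73 and 0.18), SLC2A3 (0.61 and 0.68), NDRG1 (0.59 and 0.40), VEGFA (0.57 and 0.31), SLC2A1 (0.47 and 0.28), PFKP (0.37 and 0.15), EGLN1 (0.10 and 0.18) and HIF1A (0.08 and 0.31). These 11 members were called both ways. In all 30 of 39 members passed with BaP, 23 higher and 7 lower, beside 51.4% of 14392 genes, 26.4% higher and 25.1% lower. After correction it was 15 members, 10 higher and 5 lower, beside 25.3% of all genes, 12.0% higher and 13.2% lower. The median over the members was 0.15 and then 0.03. Over all genes it was 0.01 both times. In the GFP and HcRed lines alone 16 members passed with BaP, where 2683 of all 14196 genes passed, so calls were fewer among all genes too.

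Among calls with BaP that were lost on correction, those on the higher side were ADM (0.52 and 0.18), PFKL (0.50 and -0.02), ALDOC (0.42 and 0.19), GAPDH (0.39 and 0.03), ENO2 (0.33 and 0.04), PFKFB3 (0.32 and 0.05), ALDOA (0.31 and 0.02), GPI (0.28 and 0.05), HK1 (0.22 and 0.03), EPAS1 (0.20 and 0.03), PKM (0.20 and -0.0045), PGM1 (0.17 and 0.11) and PFKM (0.15 and 0.08). On the lower side they were P4HA1 (-0.28 and -0.07), BNIP3L (-0.20 and 0.03), PDK3 (-0.19 and -0.0012) and PGK1 (-0.12 and 0.01). TPI1 (0.18, and -0.13 after correction) and ENO1 (0.06 and -0.15) were called in both directions. KDM3A (0.05 and 0.20) and PFKFB2 (0.01 and 0.15) were called after correction only.

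NNK moved fewer of these genes once corrected. LDHA was 335, 523 and 783 CPM with NNK, lower than with DMSO in 8 of 8 lines by -0.30 ± 0.03, and by -0.17 ± 0.03 after correction. ALDOC, an aldolase isozyme best known from brain, was 4.86, 15.9 and 35.9 CPM with DMSO and 10.3, 25.7 and 39.9 CPM with NNK. Its difference was 0.63 ± 0.10 and higher in 8 of 8 lines, and 0.42 after correction. PFKFB4, an enzyme that makes or removes the activator of phosphofructokinase, rose by 0.59 ± 0.09 and by 0.32 after correction. ALDOA (0.44 and 0.15), SLC2A1 (0.37 and 0.17) and NDRG1 (0.35 and 0.12) were the other members called both ways. Without correction 26 members passed, 17 higher and 9 lower, beside 51.7% of 14387 genes, 25.9% higher and 25.8% lower. With it 11 passed, 7 higher and 4 lower, beside 17.5% of all genes, 8.28% higher and 9.19% lower. The median over the members was 0.07 and then -0.01, and over all genes 0.00 and then 0.01.

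Lost on correction with NNK were PFKL (0.50 and -0.06), SLC16A3 (0.48 and -0.09), VEGFA (0.31 and 0.02), GAPDH (0.31 and -0.04), GPI (0.27 and -0.01), TPI1 (0.23 and -0.07), HK1 (0.20 and -0.0011), PFKP (0.19 and -0.05), PKM (0.19 and -0.04), EPAS1 (0.17 and -0.02) and PFKM (0.16 and 0.08). On the lower side EGLN3 (-0.69 and -0.66), LDHB (-0.19 and -0.03), SLC16A1 (-0.18 and -0.07), PDK3 (-0.16 and -0.01), BNIP3L (-0.16 and 0.10), PFKFB2 (-0.15 and -0.04), P4HA1 (-0.15 and 0.10) and PDHA1 (-0.13 and -0.06) were lost. The fall of EGLN3 stayed about as large while its call was lost. ENO1 was 0.07 and then -0.15, called both times. Called after correction only were HIF1A (-0.02 and 0.23), EGLN1 (0.05 and 0.13), PFKFB3 (-0.04 and -0.32) and ADM (-0.13 and -0.46). PGAM1 and BNIP3 were not called against DMSO with any of the 3 chemicals, with or without correction.

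The chemicals shared the 24 DMSO samples, so their differences from DMSO are not independent. Compared directly, which leaves the DMSO samples and their GC trend out, CSC was higher than BaP for 17 of 39 members and lower for none that passed, beside 15.1% of all genes, 8.57% higher and 6.52% lower. The doses of CSC, BaP and NNK were not matched. The differences were largest for SLC2A3 (0.75 ± 0.20), VEGFA (0.52 ± 0.06), SLC16A3 (0.43 ± 0.04), NDRG1 (0.35 ± 0.05), PDK1 (0.31), HK2 (0.29), BNIP3 (0.28) and LDHA (0.27 ± 0.03). SLC2A1 (0.25), P4HA1 (0.23), GAPDH (0.19), PFKP (0.17), SLC16A1 (0.17), HIF1A (0.15), EPAS1 (0.13), ALDOA (0.10) and ENO1 (0.09) followed. All 17 passed in the same direction with correction. Without replicate 2 the count was 11.

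CSC was higher than NNK for 19 members and lower for 3, beside 21.6% of all genes, 11.0% higher and 10.6% lower. SLC2A3 (1.34 ± 0.24), VEGFA (0.76 ± 0.06), the vasodilator peptide ADM (0.71 ± 0.16), SLC16A3 (0.66 ± 0.04), NDRG1 (0.59 ± 0.05) and PFKFB3 (0.44 ± 0.09) led. Also higher were HK2 (0.36), PFKP (0.34), SLC2A1 (0.32), BNIP3 (0.30), GAPDH (0.26), HIF1A (0.25), PFKFB2 (0.20), KDM3A (0.19), LDHA (0.18), PGM1 (0.16), EPAS1 (0.15), GPI (0.09) and ENO1 (0.08). ALDOC (-0.48), PFKFB4 (-0.43) and PFKM (-0.17) were lower with CSC. Without replicate 2 the count was 14. BaP against NNK gave 10 members, 7 higher and 3 lower, beside 9.19% of all genes, 3.87% higher and 5.32% lower. These were ADM (0.67), PFKFB3 (0.34), VEGFA (0.26), SLC16A3 (0.25), NDRG1 (0.24), PFKP (0.18) and GAPDH (0.08) on the higher side, and PFKFB4 (-0.49), ALDOA (-0.13) and LDHA (-0.10) on the lower. On correction all 10 passed in the same direction, as did 21 of the 22 for CSC against NNK. SLC16A3, VEGFA, NDRG1, PFKP and GAPDH passed in all 3 direct comparisons, with CSC above BaP and BaP above NNK. LDHA also passed in all 3, with CSC above NNK and NNK above BaP.

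The next question was what the genotypic perturbations did, over all 4 treatments with treatment as a term. The basal marker sum was 5964 to 7621 CPM in GFP, 4019 to 6127 CPM in the FAT1 knockout and 4308 to 6342 CPM in the CDKN2A knockout. It was 7465 to 10110 CPM in HcRed, 6818 to 11740 CPM in NRF2, 5532 to 8473 CPM in FGFR1, 5116 to 6382 CPM in NRG1 and 4963 to 5919 CPM in PIK3CA. The sums in NRG1 and PIK3CA did not overlap that in HcRed. Of the 8 markers, 5 were called lower and 1 higher in the FAT1 knockout, and 5 and 2 in the CDKN2A knockout. In PIK3CA it was 7 lower and 1 higher, in FGFR1 6 and 1, in NRG1 6 and 0, and in NRF2 3 and 3. The shares of all genes called are given with each line below. The part of these markers in the differences between lines was not tested. In the CDKN2A knockout 25 of 39 members passed against GFP, 15 higher and 10 lower, beside 57.6% of 14383 genes, 29.4% higher and 28.3% lower. The share called was thus not far from that of all genes. HIF1A and HK2 were among the higher members, and the HIF-associated BNIP3L and PDK1 among the lower. HIF1A was 330, 377 and 415 CPM (lowest, median and highest of 12) in GFP and 498, 576 and 649 CPM in the knockout, which did not overlap. The difference was 0.63 ± 0.04 with an adjusted p of 1.08e-22 by limma-voom. HK2 was 13.0, 23.4 and 37.8 CPM in GFP and 48.8, 66.2 and 81.3 CPM in the knockout. The difference was 1.38 ± 0.12 and the groups did not overlap, but HcRed stood at 39.6, 53.3 and 89.7 CPM, close to the knockout. ALDOC was 4.86, 10.8 and 29.1 CPM in GFP and 17.3, 35.2 and 54.4 CPM in the knockout, a difference of 1.62 ± 0.19. EGLN3, a prolyl hydroxylase that marks HIF for destruction, had a read in all 12 knockout samples at 3.93 to 14.9 CPM and was 0 to 8.62 CPM in GFP (1.34 ± 0.30). SLC16A3 (1.05 ± 0.08), VEGFA (0.66 ± 0.07), EGLN1 (0.52 ± 0.06), SLC16A1 (0.45), ALDOA (0.44), EPAS1 (0.40), NDRG1 (0.27), KDM3A (0.24), PGK1 (0.23), P4HA1 (0.21) and LDHA (0.13) were also higher.

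Lower in the CDKN2A knockout were 8 genes of glycolytic enzymes, namely GPI (-0.56 ± 0.04), TPI1 (-0.46), GAPDH (-0.42 ± 0.03), PFKP (-0.37), PFKL (-0.31), PFKM (-0.29), PKM (-0.17) and LDHB (-0.12). BNIP3L (-0.55) and PDK1 (-0.38) were lower too. On correction 23 of the 25 passed in the same direction. In the other lines it was 28 of 28 for FAT1, 15 of 16 for PIK3CA, 17 of 18 for NRF2, 10 of 10 for NRG1 and 10 of 11 for FGFR1. Across the 5 groups by GC content the median difference of all genes ran from -0.10 to 0.19 for this knockout and from -0.05 to 0.20 for FAT1. With DMSO the slope on GC content was -0.416 to -0.326 in GFP, -0.226 to -0.165 in the CDKN2A knockout and -0.202 to -0.175 in the FAT1 knockout.

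In the FAT1 knockout members moved in both directions, also among isozymes of 1 step: PFKP and PFKL were lower and PFKM higher, and ENO1 was lower and ENO2 higher. PGK1 was 280, 336 and 370 CPM in GFP and 188, 214 and 247 CPM in the knockout (-0.60 ± 0.05), without overlap. PKM, pyruvate kinase, was 1199 to 1811 CPM and 948 to 1144 CPM (-0.54 ± 0.03), and ENO1 was lower by -0.46 ± 0.03. PDHA1, a subunit of pyruvate dehydrogenase, was 80.9 to 136 CPM in GFP and 37.1 to 76.5 CPM in the knockout (-0.94 ± 0.09), and its value in HcRed, 68.0 to 103 CPM, overlapped the knockout. The kinases that switch that enzyme off, PDK1 (-0.60) and PDK3 (-0.58), were also lower. So were VEGFA (-0.92 ± 0.09), PFKP (-0.60), PGM1 (-0.48), PFKFB3 (-0.42), NDRG1 (-0.36), HIF1A (-0.34), PFKL (-0.32) and GPI (-0.29).

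Higher in the FAT1 knockout were ALDOC (1.52 ± 0.17), P4HA1 (0.87 ± 0.09), PFKM (0.74 ± 0.10), ENO2 (0.72 ± 0.17), HK1 (0.72 ± 0.06), ALDOA (0.63 ± 0.04), PFKFB4 (0.62), LDHB (0.60 ± 0.04), SLC16A3 (0.60), EPAS1 (0.55), TPI1 (0.52), GAPDH (0.46 ± 0.02), PFKFB2 (0.28) and SLC16A1 (0.16). P4HA1 was 40.7 to 71.9 CPM in GFP and 81.7 to 145 CPM in the knockout, without overlap, while HcRed was 63.1 to 93.0 CPM. In all 28 of 38 members passed, 14 in each direction, beside 48.9% of 14021 genes, 25.0% higher and 23.9% lower. SLC2A3 had too few reads here to be tested. Both knockouts were set against the same 12 GFP samples. ALDOC was lowest in GFP of all 8 lines by its median (10.8 CPM, against 16.9 to 35.2 CPM in the others). With DMSO alone it was 4.86 to 6.70 CPM in GFP, 24.7 to 29.1 CPM in the FAT1 knockout, 17.3 to 35.9 CPM in the CDKN2A knockout and 10.1 to 15.8 CPM in HcRed, so that both knockouts were above HcRed as well as GFP.

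**Figure D4:**
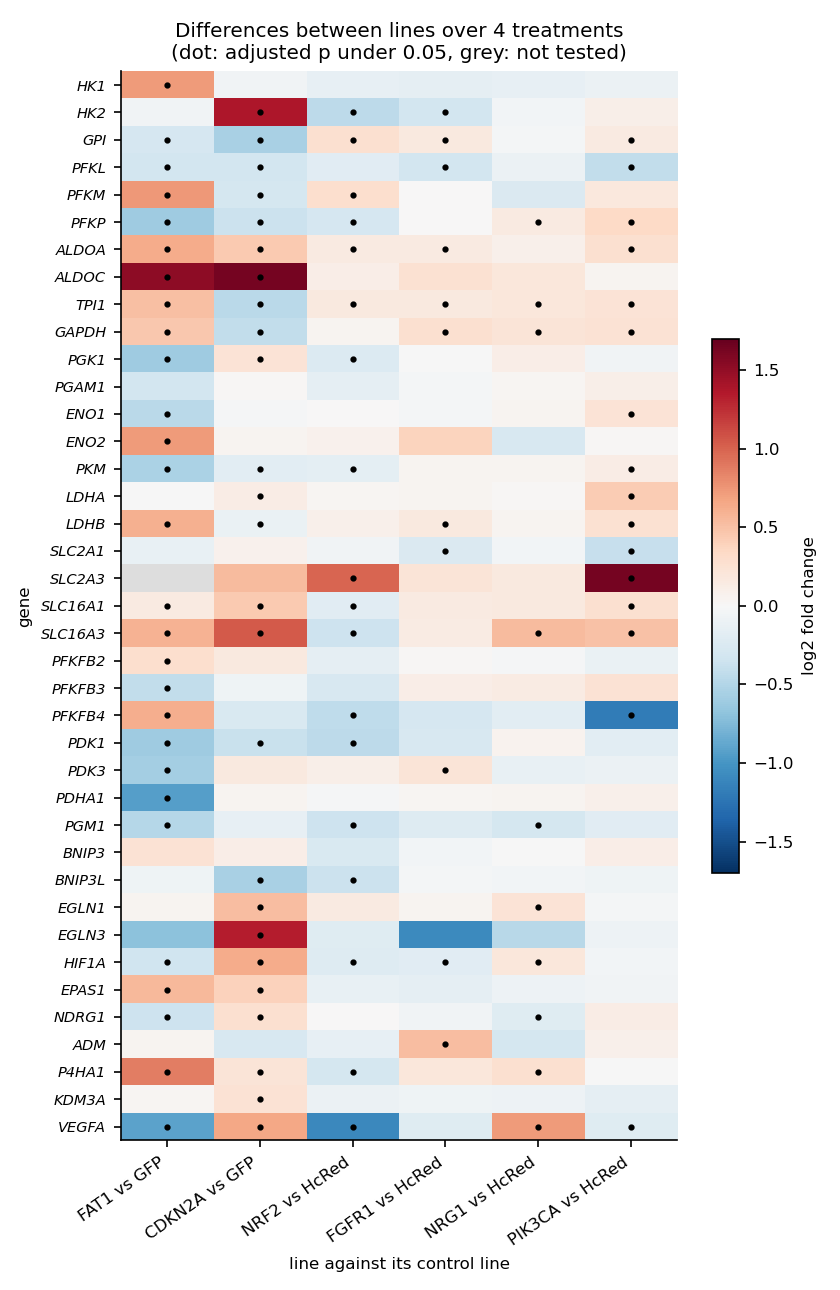
Colour gives the log2 difference of each line from its control over 4 treatments, for the 39 genes in rows and the 6 lines in columns. A dot marks an adjusted p under 0.05 and grey a gene that was not tested, with the extremes at PIK3CA for SLC2A3 (1.63) and PFKFB4 (-1.20).

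PIK3CA, the catalytic subunit of a kinase of the insulin and growth factor pathway, raised LDHA and several enzymes of glycolysis. LDHA was 432, 573 and 699 CPM in HcRed and 655, 790 and 912 CPM in PIK3CA, and was higher in 4 of 4 treatments. The difference was 0.43 ± 0.04 with an adjusted p of 1.61e-16 by limma-voom. SLC2A3 was 0, 3.15 and 7.04 CPM in HcRed and 5.56, 6.88 and 25.5 CPM in PIK3CA (1.63 ± 0.26). PFKFB4 was 23.8, 39.2 and 70.3 CPM in HcRed and 11.0, 16.9 and 25.4 CPM in PIK3CA (-1.20 ± 0.13), lower in 4 of 4 treatments. SLC16A3 (0.50), PFKP (0.34), ALDOA (0.28), SLC16A1 (0.27), LDHB (0.26), GAPDH (0.25), TPI1 (0.23), ENO1 (0.23), GPI (0.15) and PKM (0.13) were higher. PFKL (-0.42), SLC2A1 (-0.40 ± 0.06) and VEGFA (-0.20) were lower, so the pair of glucose transporters moved in opposite directions. The fall of VEGFA was lost with edgeR and DESeq2. In all 16 of 39 members passed, 12 higher and 4 lower, beside 27.8% of 14391 genes, 14.0% higher and 13.8% lower.

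NRF2, the master regulator of the antioxidant response, had more members lower than higher. VEGFA was 39.0, 61.3 and 122 CPM in HcRed and 18.6, 30.1 and 46.5 CPM in NRF2. The difference was -1.10 ± 0.10 with an adjusted p of 1.35e-14 by limma-voom, and it was lower in 4 of 4 treatments. HK2 (-0.45), PDK1 (-0.44), PFKFB4 (-0.43), BNIP3L (-0.36), PGM1 (-0.36), SLC16A3 (-0.35), P4HA1 (-0.30), PFKP (-0.29), PGK1 (-0.24), HIF1A (-0.22), SLC16A1 (-0.19) and PKM (-0.16) were lower. SLC2A3 (0.99 ± 0.29), PFKM (0.28), GPI (0.27), TPI1 (0.17) and ALDOA (0.16) were higher. This made 18 members, 5 higher and 13 lower, beside 21.6% of 14242 genes, 10.4% higher and 11.2% lower. With DMSO samples alone 5 members passed, 2 higher and 3 lower, and 1005 of all 14035 genes. The median over the members was -0.02 there and -0.14 over the 4 treatments, so the lean to lower values was hardly seen with DMSO alone. PFKFB4 and PKM turned to higher there, as given in the last section.

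NRG1, a ligand of the ERBB receptors, raised VEGFA from 39.0 to 122 CPM in HcRed to 56.8 to 195 CPM (0.72 ± 0.08) and SLC16A3 from 126 to 352 CPM to 185 to 437 CPM (0.53 ± 0.06), each in 4 of 4 treatments with overlapping ranges. P4HA1 (0.27), EGLN1 (0.23), GAPDH (0.22), HIF1A (0.19), TPI1 (0.19) and PFKP (0.16) were higher, and PGM1 (-0.29) and NDRG1 (-0.21) lower. This made 10 members, 8 higher and 2 lower, beside 10.8% of all genes, 5.86% higher and 4.91% lower. FGFR1, a receptor tyrosine kinase, had 11 members, 7 higher and 4 lower, beside 13.5% of all genes, 7.25% higher and 6.23% lower. ADM (0.52), GAPDH (0.28 ± 0.03), PDK3 (0.22), LDHB (0.16), GPI (0.16), TPI1 (0.16) and ALDOA (0.15) were higher, and HK2 (-0.31), PFKL (-0.31), SLC2A1 (-0.25) and HIF1A (-0.19) lower. These counts fell when a replicate was left out: without replicates 1, 2 and 3 in turn NRG1 had 4, 5 and 6 members, and FGFR1 had 7, 4 and 7. With DMSO samples alone NRG1 had 3 members, with 287 of 14053 genes, and FGFR1 had 1, with 265 of 14214 genes. The 4 overexpression lines shared the 12 HcRed samples. PGAM1 and BNIP3 were called in no line.

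Isozymes of the same step did not keep the same mix. As a share of CPM per kilobase, HK2 made up a median of 28.1% of HK1 and HK2 in the CDKN2A knockout (18.2 to 31.0%), 11.1% in GFP (7.66 to 15.8%) and 6.74% in the FAT1 knockout (3.59 to 9.69%). LDHA made up 32.8% of LDHA and LDHB in the FAT1 knockout (28.3 to 35.9%) and 42.9% in GFP (38.0 to 46.1%), without overlap. PFKM made up 22.0% of the phosphofructokinase genes in the FAT1 knockout (16.0 to 27.3%) and 9.63% in GFP (7.78 to 13.6%). SLC16A3 made up 48.0% of SLC16A1 and SLC16A3 with DMSO (23.1 to 58.6%) and 68.8% with CSC (57.2 to 77.5%). These shares were not corrected for GC content, which is 66.0% for SLC16A3 and lower for SLC16A1, and on correction the difference of SLC16A3 went from 1.14 to 0.54 and that of SLC16A1 from -0.15 to -0.01. Shares use the length of 1 transcript per gene and were not tested.

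The last question was whether the response to a chemical differed among the 8 lines, tested as a moderated F of the 7 interaction terms. With CSC 5 of 39 members passed, beside 1.28% of 14497 genes. After correction 2 of them passed, beside 0.729% of genes, namely NDRG1 (adjusted p of 0.000400 by limma-voom) and PKM (0.00265). NDRG1 was 147, 140 and 149 CPM in PIK3CA with DMSO and 422, 447 and 311 CPM with CSC, a difference of 1.35 ± 0.10. In the FAT1 knockout it was 112, 98.8 and 106 CPM with DMSO and 146, 143 and 149 CPM with CSC (0.48 ± 0.12). The rise was present in 8 of 8 lines, and the lines differed in its size. PKM was 1199, 1365 and 1261 CPM in GFP with DMSO and 1639, 1670 and 1640 CPM with CSC (0.36 ± 0.04). In NRF2 cells it was 1154, 1111 and 976 CPM with DMSO and 1157, 1092 and 998 CPM with CSC, which overlapped. The differences within single lines are uncorrected. With DMSO the slope on GC content was -0.416 to -0.326 in GFP and -0.163 to -0.102 in NRF2, and its part in them was not tested. GAPDH (0.42 to 0.72 over the lines) and ENO1 (0.05 to 0.35) passed before correction only. BNIP3L ran from -0.59 ± 0.10 in GFP, where it was 158 to 185 CPM with DMSO and 112 to 123 CPM with CSC, to 0.23 ± 0.15 in NRF2, and also passed before correction only. Without replicate 2 the count was 2 and without replicate 3 it was 3. With BaP no member passed by limma-voom, edgeR or DESeq2, 2 had an unadjusted p under 0.05, and 0.25% of genes passed. With NNK none passed by these tools, 6 had an unadjusted p under 0.05, and 0.174% of genes passed.

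**Figure D5:**
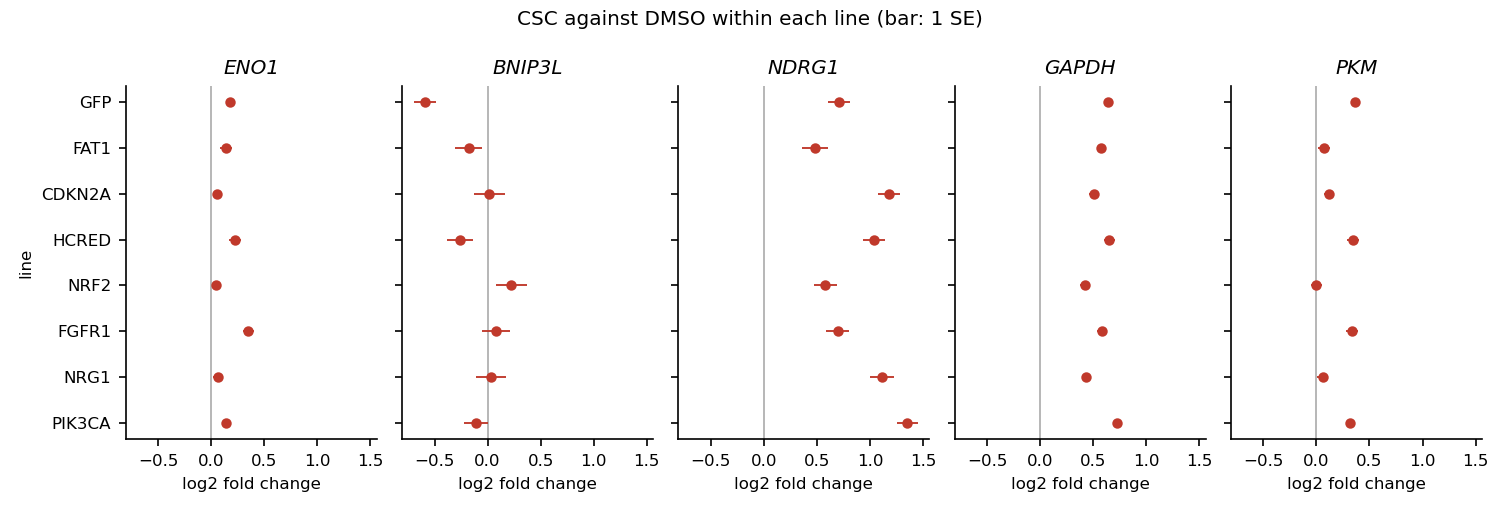
Uncorrected log2 difference of CSC from DMSO within each of the 8 lines, with bars of 1 SE. The 5 genes are those whose response differed among lines before correction. NDRG1 runs from 0.48 in the FAT1 knockout to 1.35 in PIK3CA, PKM lies at 0.00 in NRF2 and 0.36 in GFP, and BNIP3L is the gene with values on both sides of 0.

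Other genes of both pathways, listed by function, gave a mixed picture beside the members. Of 35 further genes of glycolysis and pyruvate handling 25 could be tested, and 6 were higher and 12 lower with CSC, 8 and 10 with BaP, and 4 and 9 with NNK. After correction these were 4 and 5, 3 and 2, and 1 and 1. Among all genes tested, 27.2% were higher and 28.4% lower with CSC, 26.4% and 25.1% with BaP, and 25.9% and 25.8% with NNK. After correction the shares of all genes were 16.8% and 17.2%, 12.0% and 13.2%, and 8.28% and 9.19%. The median of the 25 was -0.12 with CSC, -0.04 with BaP and -0.09 with NNK, and 0.04, 0.02 and 0.01 after correction. TXNIP, which curbs glucose uptake, fell with CSC by -0.95 (-0.77 after correction), as did its relative ARRDC4 (-0.61 and -0.44) and the pyruvate dehydrogenase subunit PDHB (-0.43 and -0.31). MLXIPL, a glucose-responsive transcription factor, rose with CSC (1.10 and 0.66), BaP (1.54 and 1.08) and NNK (1.17 and 0.73). G6PC3 rose with CSC (0.70 and 0.48), and with BaP (0.44 and 0.22) and NNK (0.32 and 0.08) it was called before correction only. PGAM2 with CSC (0.68 and 0.21), PDK2 with BaP (0.34 and 0.0027) and GYS1 with NNK (0.35 and 0.03) were also called before correction only. Of the genes that fell, MPC2, a subunit of the mitochondrial pyruvate carrier, was lower with BaP (-0.34 and -0.28) and UGP2 with NNK (-0.33 and -0.14). UGP2 with BaP (-0.27 and -0.10), SLC16A7 with BaP (-0.34 and -0.07) and NNK (-0.33 and -0.04), and DLD with NNK (-0.30 and -0.01) were called before correction only.

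Of 40 further hypoxia genes 37 could be tested, with 11 higher and 9 lower with CSC, 11 and 9 with BaP, and 12 and 9 with NNK. After correction these were 11 and 3, 8 and 3, and 4 and 4. Before correction the called shares of this list were near those of all genes (55.6%, 51.4% and 51.7%), so the counts are no result about the list. Its median was 0.03, 0.03 and 0.07 with CSC, BaP and NNK, and 0.08, 0.03 and 0.05 after correction. ANGPTL4, a secreted inhibitor of lipoprotein lipase, was 0, 2.27 and 7.78 CPM with DMSO and 1.02, 17.2 and 95.3 CPM with CSC. It rose by 3.12 (2.72 after correction) with CSC, 1.42 (1.03) with BaP and 1.21 (0.85) with NNK. The transcriptional repressor BHLHE40 rose by 0.90 with CSC, 0.56 with BaP and 1.004 with NNK, and by 0.84, 0.49 and 0.94 after correction. ARNT2, a partner of HIF, rose with CSC (0.87 and 0.75), and CITED2, which competes with HIF for its coactivator, rose with NNK (0.53 and 0.53). BHLHE41 was called with BaP before correction only (0.53 and 0.52). HILPDA, a lipid droplet protein, fell with CSC (-0.58 and -0.67), while INSIG2 (-0.48 and -0.16) and LOX (-0.33 and -0.11) were called lower with CSC before correction only. VLDLR fell with BaP (-0.50 and -0.34) and NNK (-0.46 and -0.33), AK4 (-0.42 and -0.33) and PLOD2 (-0.41 and -0.14) fell with BaP, and INSIG2 (-0.64 and -0.35) and RORA (-0.54 and -0.33) fell with NNK.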

How the data were processed

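Count tables were deposited for 95 SFL libraries of AALE cells. The authors deposited raw counts per RefSeq gene. Per the study's methods, 75-base single-end reads were trimmed with cutadapt 1.12, checked with FastQC 0.11.5, aligned to hg19 with STAR 2.5.2b and counted with featureCounts. Whether strand was used and how reads with several alignments were treated are not given in the sources used here.

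Lines and treatments were taken from the sample labels. The study calls its replicates biological, but neither it nor the labels say whether they were grown or exposed separately, and p-values measure the spread between these samples. Counts were normalised with TMM (edgeR 4.0.16, R 4.3.3) and tested 2-sided by limma 3.58.1 (voom weights, moderated by empirical Bayes). Tested genes had a mean count over 1 among the samples of the comparison. P-values were adjusted by Benjamini-Hochberg over all genes, with a threshold of 0.05. Chemicals were compared with genotype as a term, and lines with treatment as a term. The script was tested on simulated data. CPM in the text are TMM-normalised, and levels per kilobase use the canonical GENCODE transcript.

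GC content and exon length came from GENCODE v44 models on GRCh37, matched for 24309 of 27978 symbols. The correction subtracted a loess trend (span 0.3) of log2 CPM (prior count of 2) in each sample. The alternatives were DESeq2 1.42.0, its size factors, the quasi-likelihood test of edgeR, other filters, a replicate block, leaving out replicates, all samples in 1 fit, control lines or DMSO samples alone and, chosen after seeing the data, leaving out libraries under 500000 counts.

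The members and the lists of further genes were chosen with earlier results of these data known. All members past the threshold are named, and of the further genes the 3 with the largest rise and fall per chemical. Promoters of VEGFA, NDRG1, SLC2A3, SLC16A1, PFKFB2 and BNIP3L were not used here. Differences are log2 fold changes, ± SE where given.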

Additional observations from a re-analysis of the deposited data

Results flagged for a closer look

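The size of the CSC response differed among the 8 lines for 5 members, by an interaction test adjusted over all genes with limma-voom. These were PKM (adjusted p of 7.652e-06), NDRG1 (0.0002126), GAPDH (0.0002369), ENO1 (0.003849) and BNIP3L (0.03983). After correction for GC content and exon length NDRG1 and PKM passed, and the adjusted p was 0.0737 for ENO1, 0.124 for GAPDH and 0.234 for BNIP3L. Without correction the response of NDRG1 was above 0 in 8 of 8 lines, as were those of GAPDH and ENO1.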

How the results depend on the processing

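Of 238 called differences of members, edgeR kept 230 and DESeq2 227 in direction and call, and the DESeq2 size factors 233. No called direction turned under these, the other filters on counts, the replicate block, the fit of all 95 samples, or leaving out replicates or libraries under 500000 counts. Correcting for the GC content and length of exons kept 181, lost 33 and reversed 24. Against DMSO it kept only 13 of 25 calls with CSC, 11 of 30 with BaP and 6 of 26 with NNK, and all reversals were there. With it 15 members passed with BaP (30 without), 11 with NNK (26 without) and 2 for the CSC response by line (5 without). Reversed with CSC were ENO1 (-0.0636), BNIP3L (0.13), PGK1 (0.077), LDHA (0.0109), TPI1 (-0.0671) and PFKL (-0.14). Reversed with BaP were ENO1 (-0.15), BNIP3L (0.0313), PGK1 (0.009), TPI1 (-0.13), PKM (-0.0045) and PFKL (-0.0155). Reversed with NNK were ENO1 (-0.15), EPAS1 (-0.0177), BNIP3L (0.10), PFKP (-0.048), HK1 (-0.0011), P4HA1 (0.0952), GAPDH (-0.0442), TPI1 (-0.0672), PKM (-0.0393), SLC16A3 (-0.0938), GPI (-0.0088) and PFKL (-0.058).

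In the GFP and HcRed lines alone BaP called 16 members, PGK1 was 0.0013 with CSC and ADM -0.16 with BaP. With DMSO samples alone NRF2 called 5, FGFR1 1 and NRG1 3, and PFKFB4 (0.14) and PKM (0.0081) in NRF2, ADM (-0.17) in FGFR1, PFKFB3 (0.0288) in the FAT1 knockout and PFKM (0.0098) in the CDKN2A knockout turned. These fits had fewer samples. For the CSC response by line DESeq2 and no filter on counts called 3 each. Leaving out 1 replicate at a time gave 25 to 26 members for CSC, 23 to 26 for BaP and 20 to 23 for NNK against DMSO, 11 to 14 for CSC against BaP, 14 to 19 for CSC against NNK, 7 to 9 for BaP against NNK, 15 to 15 for NRF2, 4 to 7 for FGFR1, 4 to 6 for NRG1, 14 to 17 for PIK3CA, 25 to 28 for FAT1, 21 to 24 for CDKN2A, and 2 to 5, 0 to 1 and 0 to 2 for the CSC, BaP and NNK responses by line.

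Whether replicate numbers pair the samples could not be decided. Between samples that share a number, the deviations correlated at -0.0561 to 0.0887. Counting noise in libraries of this depth can hide a shared effect, so these low values do not exclude pairing. With the replicate number as a block, 232 of the 238 calls were kept and 6 lost, 1 member passed for the NNK response by line, and no other count moved by over 1.5 times.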
